A study of Danio rerio with 3 samples.

Results

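The genes described here are 10 regulators and mineralization genes of osteoblasts, the cells that lay down bone, taken by symbol from the 28084 rows of the deposited table that name a gene. They fall by role into the transcription factors *sp7*, *runx2a* and *runx2b*, the enzymes *alpl*, *phex* and *entpd5a*, and the matrix proteins *spp1*, *sparc*, *col10a1a* and *bglap*. Each symbol stood on a single row. Whole zebrafish larvae of the AB strain were taken for RNA-seq at 6 dpf (days post-fertilization), with 1 library per group. The WT library came from untreated wild-type larvae. The 5MO library came from larvae injected as early embryos with the *atg5* morpholino, an antisense oligonucleotide against a gene that autophagy needs. The 5mRNA library came from larvae injected with *atg5* mRNA and labelled as overexpression. No library came from larvae injected with the mismatch morpholino, so the injection and its cargo cannot be told apart, and no difference had a replicate check. The methods describe RNA from groups of larvae for WT and 5MO, so a library is a pool of animals, and do not describe the 5mRNA pool.

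Bone formation starts when precursor cells switch on Runx2 and then Sp7 (osterix), which in mice are both required for osteoblasts to form. Osteoblasts then secrete a matrix of type I collagen with proteins such as osteonectin (*sparc*), osteopontin (*spp1*) and osteocalcin (*bglap*). Mineral grows in this matrix where phosphate is set free and its inhibitor pyrophosphate is broken down, the work of enzymes such as tissue-nonspecific alkaline phosphatase (*alpl*) and, in zebrafish, Entpd5a. In larvae of this age the first bones, among them the opercle and the cleithrum, are mineralizing.

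The deposited values were RPKM, the reads of a gene scaled by its length in kilobases and by the read total of its library. They lay on steps of whole reads, from which library totals of 19502144 (WT), 20301332 (5MO) and 21857365 (5mRNA) reads were worked out. Read numbers of single genes are the lowest that fit the values, and the actual ones could be larger by a whole factor, which would narrow the intervals. These 95% exact intervals, called counting intervals, cover counting error only. Reads copied by PCR and not tagged by molecule are not independent. The *atg5* mRNA itself had RPKM values of 9.08 (WT), 7.69 (5MO) and 8.97 (5mRNA), so the library labelled as overexpression did not hold more *atg5* mRNA than WT at collection. Its share of reads in 5MO was 0.847 of that in WT, with a counting interval from 0.731 to 0.980. Against 5mRNA it was 0.856, with an interval from 0.742 to 0.988. The paper followed the knockdown by western blot of autophagy proteins, which RNA values do not measure. The gene next to *sp7*, *helz2*, which is induced by interferon in mammals, set WT apart from both injected libraries. Its RPKM was 3.33 in WT, 0.255 in 5MO and 0.347 in 5mRNA. It was picked after its values were seen.

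The 9 members with reads spanned a wide range of levels per length, and the order was nearly the same in the 3 libraries. *sparc* was highest, at rank 297 of all named genes in WT, 253 in 5MO and 267 in 5mRNA. It was followed in every library by *alpl*, *phex*, *col10a1a*, *spp1* and *entpd5a*, and the counting intervals of the RPKM of neighbours in this order did not overlap down to *entpd5a*. The transcription factors came last. In WT the intervals of *entpd5a* and *runx2b*, of *runx2b* and *sp7*, and of *sp7* and *runx2a* overlapped. In 5MO those of *sp7* and *runx2a* and of *runx2a* and *runx2b* overlapped, and in 5mRNA those of *sp7* and *runx2a*. The regulators were thus the members with the fewest reads and the widest errors.

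**Figure D1:**
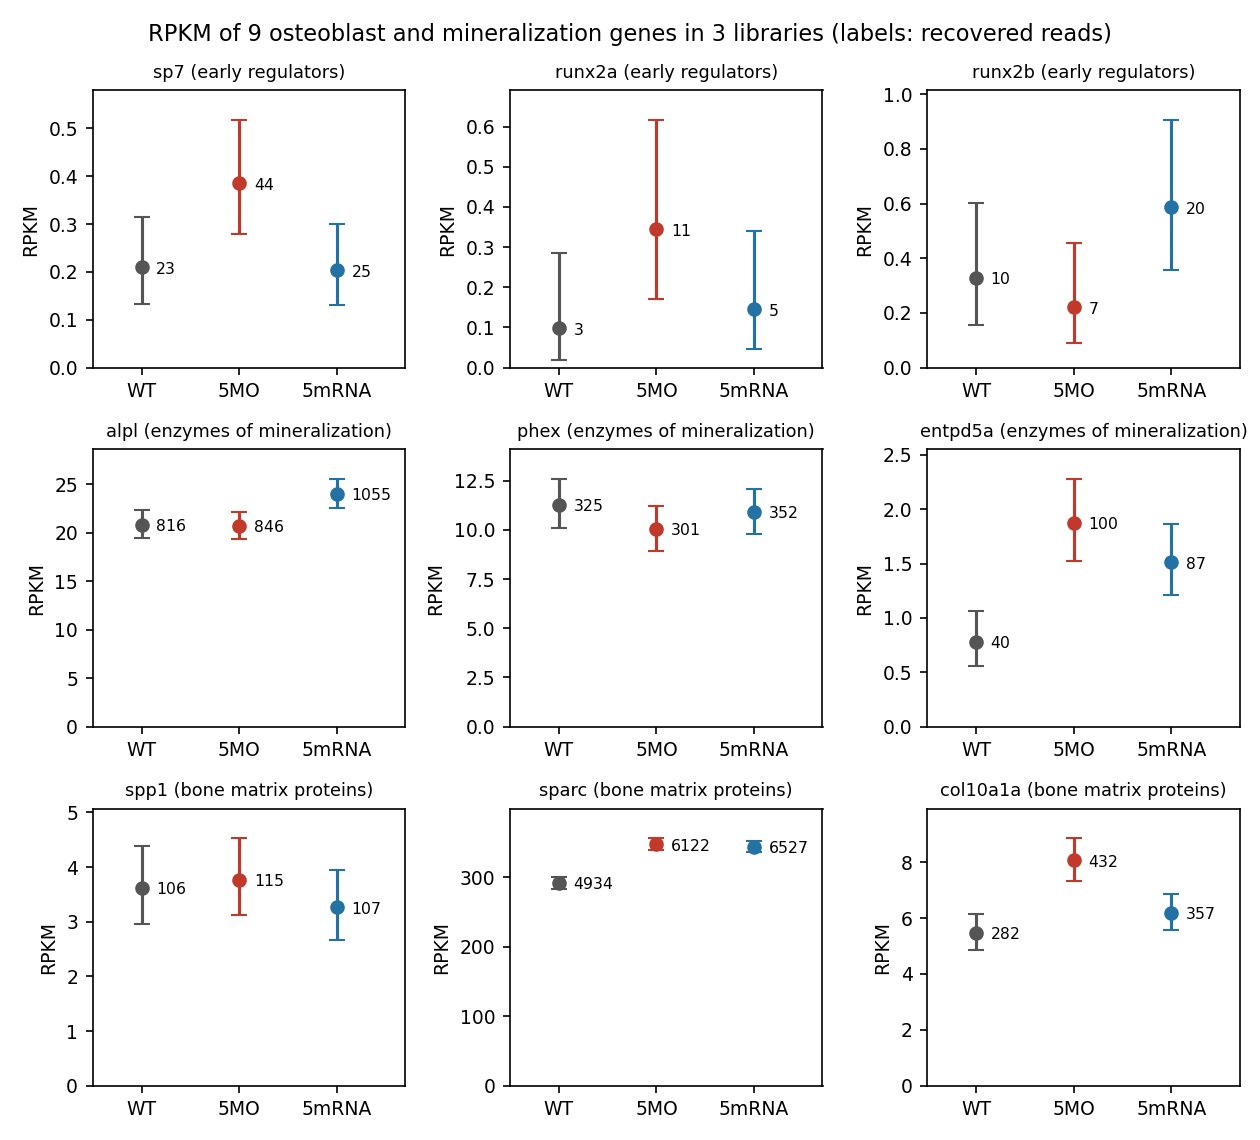
RPKM (y axis, from 0) of 9 members in the WT, 5MO and 5mRNA libraries, with 95% Poisson intervals of the recovered reads as bars and the reads as labels. *sp7* stands highest in 5MO, *runx2b* in 5mRNA, and *entpd5a* and *sparc* are lower in WT than in both injected libraries.

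*sp7* (ENSDARG00000019516, chromosome 6 from 58628600 to 58679929, plus strand, in the coordinates of the deposited table, which the submitters' processing notes place on danRer10) encodes osterix, the zinc finger factor of committed osteoblasts. Its RPKM was 0.210 in WT, 0.385 in 5MO and 0.203 in 5mRNA, from 23, 44 and 25 reads. The 5MO library was thus the high one, and WT and 5mRNA lay side by side. The counting intervals of the RPKM still overlapped, from 0.133 to 0.314 in WT and from 0.280 to 0.517 in 5MO. The ratio of read shares (the reads of a gene divided by the library total) was 1.84 for 5MO to WT with a counting interval from 1.09 to 3.19. It was 1.89 for 5MO to 5mRNA, with an interval from 1.13 to 3.23, and 0.970 for 5mRNA to WT, with an interval from 0.528 to 1.79 that includes 1. A change of this size was not rare at so low a level. Among 2579 genes with a mean RPKM within a factor of 2 of that of *sp7*, its log2 ratio of 5MO to WT stood at percentile 74.5.

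The Runx2 paralogs, which act before Sp7, differed from each other in the order of the libraries. *runx2a* (ENSDARG00000040261, chromosome 17 from 5194826 to 5359597, plus strand) had RPKM values of 0.0977 in WT, 0.344 in 5MO and 0.145 in 5mRNA, from 3, 11 and 5 reads. With 3 reads in WT no ratio to WT is given. The ratio of 5MO to 5mRNA was 2.37, with an interval from 0.759 to 8.70. *runx2b* (ENSDARG00000059233, chromosome 20 from 44097770 to 44193546, minus strand) went the other way, at 0.328 in WT, 0.221 in 5MO and 0.586 in 5mRNA, from 10, 7 and 20 reads. Its ratio was 0.672 for 5MO to WT and 1.78 for 5mRNA to WT, and the intervals, from 0.217 to 1.96 and from 0.797 to 4.27, both include 1. Only the comparison of the injected libraries had an interval that excludes 1, with a ratio of 5MO to 5mRNA of 0.377 and an interval from 0.135 to 0.928. The summed RPKM of both paralogs was 0.426 in WT, 0.565 in 5MO and 0.731 in 5mRNA. *runx2a* made up 22.9% (WT), 60.9% (5MO) and 19.9% (5mRNA) of this sum. These shares rest on few reads and carry no interval. In WT and in 5MO the counting intervals of the RPKM of the paralogs overlapped, so the larger one is not settled in either. In 5mRNA they did not overlap, *runx2a* ending at 0.339 and *runx2b* starting at 0.358. Reads could be shared with the overlapping gene *supt3h* on the opposite strand, which covers 43.9% of the *runx2a* locus, and the library kit is not stated to keep strand. *supt3h* had RPKM values of 15.2 (WT), 12.8 (5MO) and 14.4 (5mRNA), from 102, 89 and 108 reads. Its part in the *runx2a* values was not tested.

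Among the enzymes, *entpd5a* stood apart. It encodes a secreted phosphohydrolase without which zebrafish fail to mineralize their bones. *entpd5a* (ENSDARG00000053481, chromosome 17 from 44916642 to 44927048, minus strand) had RPKM values of 0.779 in WT, 1.87 in 5MO and 1.51 in 5mRNA, from 40, 100 and 87 reads. Both injected libraries were above WT and their counting intervals of the RPKM, from 1.52 to 2.28 and from 1.21 to 1.87, did not reach that of WT, from 0.557 to 1.06. The ratio of read shares was 2.40 for 5MO to WT, with an interval from 1.65 to 3.56, and 1.94 for 5mRNA to WT, with an interval from 1.32 to 2.90. These comparisons share the WT library. The injected libraries were not separated from each other. Their ratio, 5MO to 5mRNA, was 1.24 and its interval ran from 0.919 to 1.67. Among 4619 genes of similar mean level the log2 ratio of *entpd5a* stood at percentile 96.7 for 5MO to WT and 93.2 for 5mRNA to WT. Its nearest neighbours along the chromosome, *coq6* at 1480 nt and *aldh6a1* at 32366 nt, were also highest in the injected libraries, though by less. *coq6* had RPKM values of 18.1, 21.5 and 20.2 in WT, 5MO and 5mRNA, and *aldh6a1* had 426.8, 515.5 and 582.9. They were picked by position.

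*alpl*, the enzyme that splits pyrophosphate at the osteoblast surface, and *phex*, a membrane endopeptidase tied to phosphate balance in humans and mice, varied by less than *entpd5a*. *alpl* (ENSDARG00000015546, chromosome 11 from 27721584 to 27765834, plus strand) had RPKM values of 20.8 in WT, 20.7 in 5MO and 24.0 in 5mRNA, from 816, 846 and 1055 reads. Here 5mRNA was the high library. The ratio was 0.996 for 5MO to WT, with an interval from 0.904 to 1.10, and 1.15 for 5mRNA to WT, with an interval from 1.05 to 1.27. 5MO was below 5mRNA, the ratio being 0.863 and its interval running from 0.788 to 0.946. Among 5417 genes of similar level the log2 ratio of *alpl* stood at percentile 50.4 for 5MO to WT and 85.4 for 5mRNA to WT. The *alpl* locus lies wholly inside *ece1* on the opposite strand, so reads of the pair may not be separable without strand. *ece1* had RPKM values of 8.48 (WT), 8.396 (5MO) and 9.11 (5mRNA), the same order of libraries as *alpl*, and its part in the *alpl* values was not tested. *phex* (ENSDARG00000062363, chromosome 24 from 25259408 to 25297395, minus strand) had RPKM values of 11.3 in WT, 10.04 in 5MO and 10.9 in 5mRNA, from 325, 301 and 352 reads. All 3 of its intervals include 1, and the lowest ratio, that of 5MO to WT, was 0.890, its interval running from 0.758 to 1.04. The read numbers of *phex* go with a gene length of only 1477 nt. If the actual numbers are a multiple of them the interval would be narrower and might not include 1.

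**Figure D2:**
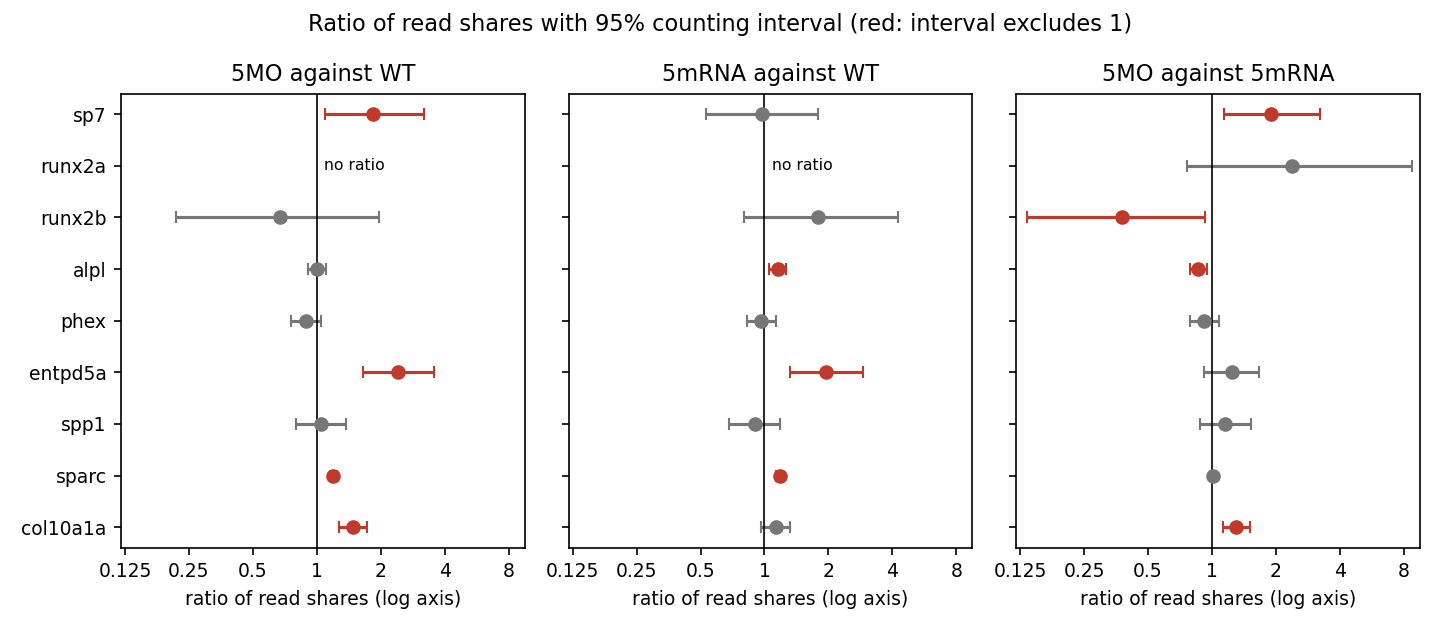
Ratio of read shares (x axis, log scale) of 9 members for 5MO to WT, 5mRNA to WT and 5MO to 5mRNA, with 95% counting intervals as bars and red for intervals that exclude 1. *entpd5a* and *sparc* are above 1 in both comparisons with WT, and *sp7* and *col10a1a* are above 1 in both comparisons of 5MO.

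Of the matrix genes, *col10a1a* (ENSDARG00000054753, chromosome 17 from 15534144 to 15538929, minus strand) encodes a type X collagen that zebrafish osteoblasts make as well as maturing cartilage. As with *sp7*, 5MO was the highest library. Its RPKM was 5.48 in WT, 8.06 in 5MO and 6.19 in 5mRNA, from 282, 432 and 357 reads. The counting intervals of the RPKM in WT and 5mRNA overlapped. The ratio was 1.47 for 5MO to WT, with an interval from 1.26 to 1.72, and 1.30 for 5MO to 5mRNA, with an interval from 1.13 to 1.50. The ratio of 5mRNA to WT was 1.13, with an interval from 0.964 to 1.33 that includes 1. Among 8401 genes of similar level the change in 5MO against WT stood at percentile 95.1. Its nearest neighbours along the chromosome, picked by position, were also highest in 5MO. *marcksb*, at 3876 nt, had RPKM values of 108.9, 153.7 and 109.6 in WT, 5MO and 5mRNA. *si:ch211-266g18.9*, at 33803 nt, had 0.244, 0.684 and 0.602, from 13, 38 and 36 reads. Whether their change bears on that of *col10a1a* was not tested. Chondrocyte markers were higher in 5MO as well. Of 10 such markers 8 had an interval above 1 and 0 below 1 for 5MO to WT, where 19.6% of all genes with a ratio were above and 19.1% below. Among them were *col9a1a* at a ratio of 1.79, *matn1* at 1.75 and *col2a1a* at 1.65. For 5mRNA to WT 6 of the 10 were above 1 and 2 below, against 17.9% and 17.4% of all genes. The 8 notochord sheath markers were higher in 5MO too, with 7 intervals above 1 and 0 below for 5MO to WT. They had 4 above and 1 below for 5mRNA to WT. The summed RPKM of the chondrocyte markers was 249.5 (WT), 367.9 (5MO) and 285.2 (5mRNA), and that of the notochord markers 65.0, 104.7 and 72.9. Both sums follow the order of *col10a1a*, and their part in its values was not tested. *col2a1a*, at 148.4 in 5MO, and *col9a1b*, at 52.8, hold the largest parts of them. Single markers had other orders. *cmn*, *col8a1a* and *col27a1a* were lowest in 5mRNA, *col27a1b* was highest there, and *sox9a* and *acanb* were highest in WT. In whole larvae a different number of cells of a type and a different amount of RNA per cell cannot be told apart.

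*sparc* (ENSDARG00000019353, chromosome 14 from 25641650 to 25659615, minus strand), which encodes the collagen-binding protein osteonectin, had by far the most reads of the members. Its RPKM was 291.1 in WT, 347.0 in 5MO and 343.6 in 5mRNA, from 4934, 6122 and 6527 reads. WT was the low library and the injected libraries lay together. The ratio was 1.19 for 5MO to WT, with an interval from 1.15 to 1.24, and 1.18 for 5mRNA to WT, with an interval from 1.14 to 1.23. For 5MO to 5mRNA it was 1.01, with an interval that includes 1 and ends at 1.05. So *sparc* had the library pattern of *entpd5a* at a much smaller fold. The narrow interval reflects depth, and would be narrower still if the length that goes with the reads, 869 nt, is too short. Among 317 genes of similar level the change in *sparc* stood at percentile 89.3 for 5MO to WT and 85.8 for 5mRNA to WT. Some loading genes differed by as much for 5mRNA to WT, though by less for 5MO to WT. *actb1* was at a ratio of 1.16 for 5MO to WT and 0.824 for 5mRNA to WT, and *gapdh* at 0.917 and 1.35. The epidermis, which is abundant in whole larvae, had 8 markers, whose median log2 ratio to WT was 0.11 for 5MO and 0.03 for 5mRNA. These markers went both ways. *krt5*, the most abundant of them, was at a ratio of 1.23 in 5MO and 1.02 in 5mRNA, and *cyt1* at 0.579 and 0.825. For 5MO to WT 4 of the 8 had an interval above 1 and 2 below, against 19.6% and 19.1% of all genes. For 5mRNA to WT 3 were above and 2 below, against 17.9% and 17.4%.

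*spp1* (ENSDARG00000044276, chromosome 10 from 15162592 to 15170652, minus strand), the gene for the acidic phosphoprotein osteopontin, had RPKM values of 3.62 in WT, 3.77 in 5MO and 3.26 in 5mRNA, from 106, 115 and 107 reads. All 3 intervals of its ratios include 1. For 5MO to WT the ratio was 1.04, with an interval from 0.793 to 1.37. This interval holds the ratio of *sparc*, 1.19, and ends below that of *col10a1a*, 1.47. It overlaps the interval of *col10a1a*, from 1.26 to 1.72. *bglap* (ENSDARG00000058414, chromosome 3 from 1648399 to 1651382, minus strand), named for osteocalcin, is listed at 0 in every library. A count of 0 does not exclude a low level. The 3 reads at or below which no ratio is given would be 0.154 RPM in WT, 0.148 in 5MO and 0.137 in 5mRNA. An RPM is an RPKM without the scaling by length. The row of *bglap* lies wholly inside *si:ch1073-504d15.3* on the same strand, which is listed at 0 as well. How the counting treated reads that fall in both genes is not given in the sources used here, so the 0 may not stand for absent mRNA. A related row, *bglapl*, was looked up for this reason after the members had been examined. It had RPKM values of 3.71 in WT, 2.04 in 5MO and 3.51 in 5mRNA, from 82, 47 and 87 reads. Its ratio was 0.551 for 5MO to WT, with an interval from 0.376 to 0.798, and 0.582 for 5MO to 5mRNA, with an interval from 0.399 to 0.839. The osteocalcin-like row was therefore low in the library in which *sp7* and *col10a1a* were high.

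Set side by side, the members showed 3 kinds of library order. For *sp7* and *col10a1a* the ratios of 5MO to both other libraries had intervals above 1, although the intervals of the RPKM of *sp7* overlapped between the libraries. *entpd5a* and *sparc* were lower in WT than in both injected libraries, which did not differ from each other beyond the interval. For *alpl* the ratios of 5mRNA to WT and of 5MO to 5mRNA set 5mRNA above both other libraries. *runx2b* was separated between the injected libraries only, *runx2a* had too few reads in WT, *phex* and *spp1* were not separated in any comparison at the read numbers used, and *bglap* had no reads.

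As a count, 9 of the 10 members reached a mean RPKM of 0.1 over the 3 libraries, *bglap* being the exception, and *runx2a* reached it only through 5MO and 5mRNA. Changes at least 1.5-fold were read on the log2 scale of RPKM + 0.1, which understates low genes. For 5MO to WT, 3 members were at least 1.5-fold higher (*sp7*, *runx2a* and *entpd5a*) and 0 lower, where 9.17% of all 23709 genes at this level were higher and 9.39% lower. For 5mRNA to WT, 2 were higher (*runx2b* and *entpd5a*) and 0 lower, against 9.06% and 8.74% of all genes. For 5MO to 5mRNA, 2 were higher (*sp7* and *runx2a*) and 1 lower (*runx2b*), against 9.21% and 9.31%. These members are among the lowest ones, where large ratios come from few reads. *runx2a* rests on 3 reads in WT and passed the minimum through the libraries in which it was higher, so without it the count for 5MO to WT is 2. When a mean RPKM of 1 or more was required, only *entpd5a* was left in each comparison with WT.

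Counting intervals gave a different set of members. For 5MO to WT, 4 of 8 members with a ratio had an interval above 1 (*sp7*, *entpd5a*, *sparc* and *col10a1a*) and 0 below 1, where 19.6% of all genes with a ratio were above and 19.1% below. For 5mRNA to WT, 3 of 8 were above 1 (*alpl*, *entpd5a* and *sparc*) and 0 below, against 17.9% and 17.4%. For 5MO to 5mRNA, 2 of 9 were above 1 (*sp7* and *col10a1a*) and 2 below (*runx2b* and *alpl*), against 20.6% and 20.7%. About 2 in 5 of all genes thus passed this mark in 1 direction or the other. The intervals compare these libraries and not the conditions. *sp7*, *runx2a*, *col10a1a* and alkaline phosphatase are among the genes that the paper reports as higher after *atg5* knockdown. It draws on RNA-seq and qPCR, and its text does not say which method showed which gene. The RNA-seq used these libraries, so the directions of *sp7*, *runx2a* and *col10a1a* are not independent evidence. The paper writes *alp* for alkaline phosphatase. In the *alpl* row no such rise was seen, 5MO being at 0.996 of WT, where the interval includes 1, and at 0.863 of 5mRNA. The median log2 ratio of the 9 members was 0.25 for 5MO to WT, 0.21 for 5mRNA to WT and 0.20 for 5MO to 5mRNA, beside medians of 0.0059, 0.0083 and -0.0020 over all genes.

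**Figure D3:**
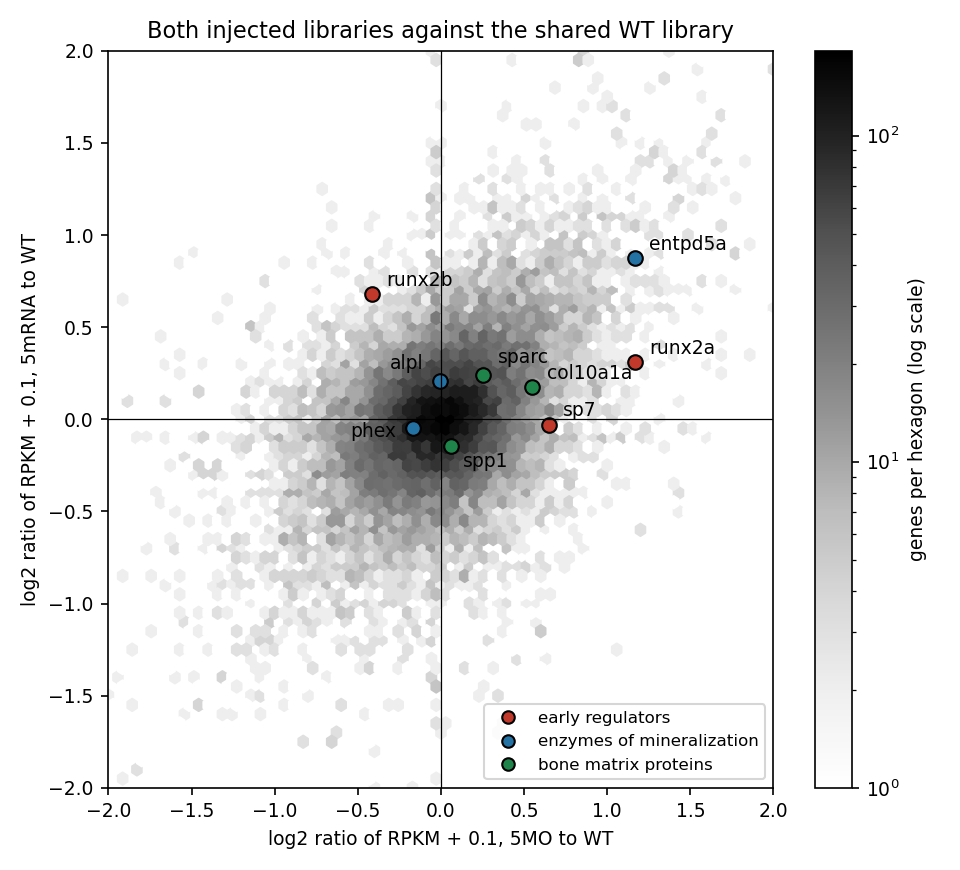
Log2 ratio of RPKM + 0.1 of 5MO to WT (x axis) and of 5mRNA to WT (y axis) for all genes whose mean RPKM reached 0.1 as grey hexagons, darker for more genes, and for 9 members as points coloured by role; genes beyond the axes are not drawn. The axes share the WT library, which alone tilts the cloud. *entpd5a* lies to the upper right, *sp7* to the right near the x axis, and *runx2b* to the upper left.

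The pathway around the members was followed with fixed lists of genes. Other transcription factors of the osteoblast lineage were not higher in 5MO as a group, as *sp7* was. Of 20 such genes, 19 had a ratio of 5MO to WT, with 1 interval above 1 and 3 below, against 19.6% and 19.1% of all genes, and the median log2 ratio was -0.0075. Among those whose mean RPKM reached 1, the lowest ratios were those of *cebpb*, which encodes a bZIP factor of many tissues, at a ratio of 0.479, and of the homeobox gene *msx1b*, at 0.676. *twist1b* and *twist2*, whose proteins hold back Runx2 in mice, were highest at 1.29 and 1.28, with intervals that include 1. *cebpb* was as low in 5mRNA against WT, at 0.472.

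Genes of phosphate and pyrophosphate handling were found on both sides, as genes in general were. Of 18 with a ratio of 5MO to WT, 6 had an interval above 1 and 4 below, where 19.6% and 19.1% of all genes did, around a median log2 ratio of 0.15 over 19 genes. *fam20a*, a pseudokinase that helps Fam20C phosphorylate secreted proteins, had the pattern of *entpd5a*. Its RPKM was 3.002 (WT), 6.35 (5MO) and 6.81 (5mRNA), and its ratio 2.12 for 5MO to WT and 2.27 for 5mRNA to WT. The phosphate cotransporter gene *slc34a2a* was the opposite, at 20.1 in WT, 6.14 in 5MO and 7.82 in 5mRNA. *slc34a1a*, of the same family, was at a ratio of 1.39 for 5MO to WT. *ankha*, which encodes a protein for pyrophosphate export, was lower in 5MO, at 0.585, the interval running from 0.436 to 0.782. The widely expressed phosphate importers *slc20a1b* and *slc20a2* were lower as well, at 0.687 and 0.874 for 5MO to WT. In 5mRNA *slc20a1b* was lower still, at 0.542 to WT, and *slc20a2* was at 0.949, with an interval that includes 1. *slc20a1a* and *ankhb*, given as the paralogs of *slc20a1b* and *ankha*, were at 1.03 and 0.915 for 5MO to WT, with intervals that include 1. For 5mRNA to WT *slc20a1a* was lower, at 0.753 with an interval from 0.655 to 0.866. *ankhb* was at 0.956 there, with an interval that includes 1. The intestinal alkaline phosphatases, paralogs of *alpl*, did not share its library order. *alpi.2* was at 0.808 for 5MO to WT and 0.722 for 5mRNA to WT, and *alp3* at 1.21 and 1.17.

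Genes listed as bone matrix outside the members were mostly higher in 5MO than in WT. They were not measured in bone alone, since the libraries came from whole larvae. Of 13 with a ratio of 5MO to WT, 10 had an interval above 1 and 0 below, against 19.6% and 19.1% of all genes, and the median log2 ratio over 14 genes was 0.41. For 5mRNA to WT the median was -0.01, with 1 interval above 1 and 2 below, against 17.9% and 17.4% of all genes. Compared directly, 5MO was above 5mRNA for 7 of the 13, and for 6 the interval included 1. Of all genes 20.6% were above and 20.7% below in this comparison. The list holds *col1a1a*, the most abundant type I collagen gene, whose ratio to WT was 1.39 in 5MO and 0.871 in 5mRNA, and *col1a1b*, with 1.54 and 1.01. Type I collagen, too, is among the genes that the paper reports as higher after *atg5* knockdown, so this count is not independent evidence. Among genes of the list whose mean RPKM reached 1, *cthrc1b* had the highest ratio, 2.72, from only 6 reads in WT, and *cthrc1a* the lowest, 0.961, with an interval that includes 1. Of 11 genes for the folding and processing of collagen, 6 had an interval above 1 for 5MO to WT. The number was 1 for 5mRNA to WT and 6 for 5MO to 5mRNA, with 0 below in each comparison. Of all genes, 19.6%, 17.9% and 20.6% were above 1 in these comparisons, and 19.1%, 17.4% and 20.7% below. The collagen chaperone genes *serpinh1b* and *serpinh1a* had ratios of 1.63 and 1.52 for 5MO to WT and of 1.28 and 1.05 for 5mRNA to WT, *ppib* was at 1.16, and *plod2* was lowest at 0.950.

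**Figure D4:**
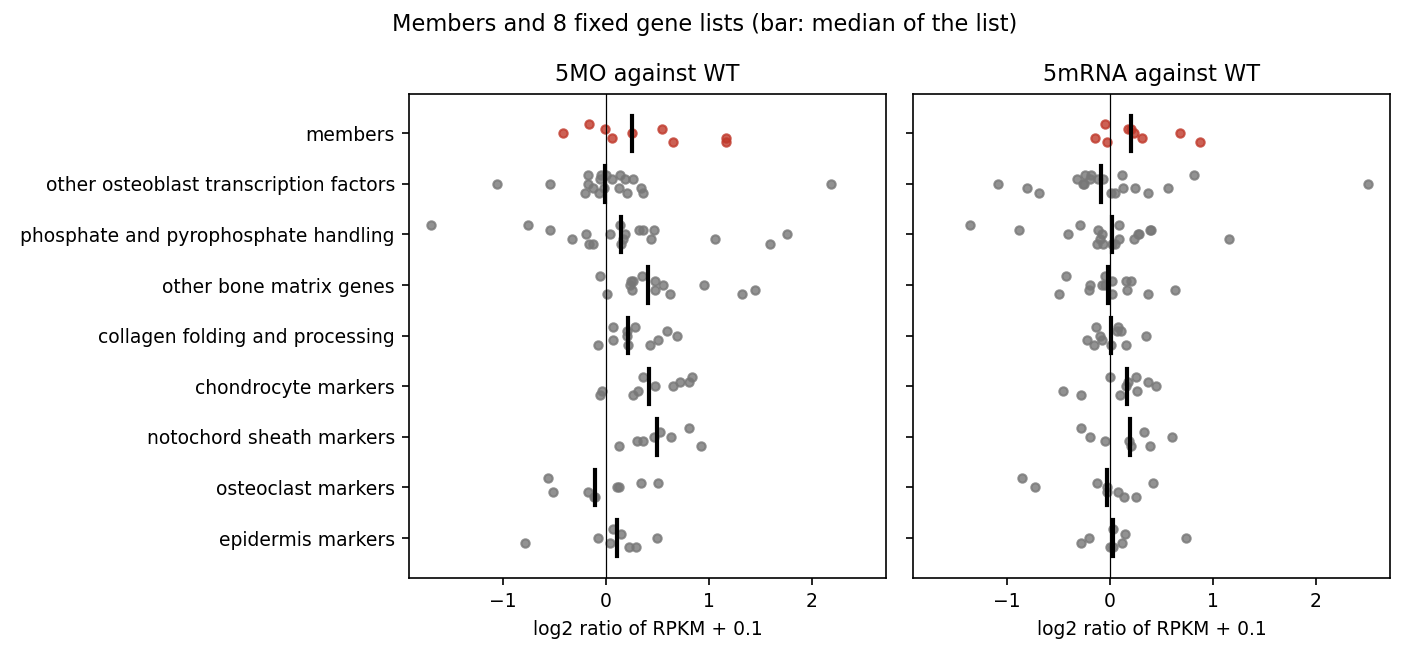
Log2 ratio of RPKM + 0.1 (x axis) of each gene whose mean RPKM reached 0.1 in 8 fixed lists and of 9 members, for 5MO to WT and for 5mRNA to WT, with the median of each list as a bar. For 5MO to WT the medians of bone matrix, chondrocyte and notochord genes are 0.41, 0.42 and 0.50, above that of the members at 0.25.

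Genes with nearly the same pair of log2 ratios against WT were looked for among all genes whose mean RPKM reached 1. The measure was the distance between the pairs on the scale of RPKM + 0.1, over the 3 libraries. This scale shrinks the ratio of *sp7* more than those of genes of higher level, so its matches have smaller ratios than its 1.84. Nearest to *sp7* were *mitd1*, *btbd17a* and *si:ch211-214c7.5*, at distances of 0.0086, 0.013 and 0.014. *mitd1* had RPKM values of 1.51, 2.42 and 1.48 in WT, 5MO and 5mRNA. Nearest to *col10a1a* were *si:dkey-204g14.4*, *scpep1* and *nid1a*, the last a basement membrane gene with RPKM values of 26.3, 38.3 and 29.5. Nearest to *alpl* were *cita*, *atxn7* and *valopa*. Within a distance of 0.1 there were 71 of 19172 genes for *sp7*, and of 19171 genes 165 for *col10a1a* and 803 for *alpl*.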

How the data were processed

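RNA-seq of whole larvae was analysed from 1 library each of WT, 5MO and 5mRNA. Per the labels, libraries were made with the NEBNext Ultra kit from 1.5 µg of RNA, and the submitters' processing notes name STAR 2.5.2a and danRer10. The authors deposited RPKM, computed from reads, gene length and library total. The counting tool and annotation release are not given in the sources used here. The deposited STAR summaries list 27492652 (WT), 28190319 (5MO) and 31140490 (5mRNA) read pairs, with 87.63% to 87.88% mapped uniquely. A further 33 rows that name no gene hold 35.8%, 36.1% and 35.7% of the RPKM sum and were left out. Whole reads were recovered from the steps of the values for 25904 genes, 1 gene was not resolved and 2179 are at 0. The recovery was tested on simulated data, but the outcome is not given here, and the read numbers remain the lowest that fit. Ratios of read shares carry 95% Clopper-Pearson intervals and RPKM 95% Poisson intervals (Python 3.11.15, NumPy 2.4.6, SciPy 1.17.1). No ratio of read shares is given at 3 reads or fewer in a library. With 1 library per group no test was possible.

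The named genes are the members, *atg5* and, from each fixed list, the 2 most abundant genes and the 2 with the largest increase and decrease in 5MO against WT at a mean RPKM of at least 1, of which some are printed, and the 3 genes most like *sp7*, *col10a1a* and *alpl*. Other genes were named by position or as the text states. The lists cover osteoblast transcription factors, phosphate handling, bone matrix, collagen folding, chondrocytes, notochord sheath, osteoclasts, epidermis, intestinal alkaline phosphatases and loading genes. The members and lists were chosen with earlier results of these data known. Alternatives were pseudocounts of 1 and 0.01, minimum mean RPKM of 1 or none, a 2-fold mark, the ratio of read shares in place of RPKM, and scaling by the median of ratios or to the same RPKM sum.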

Additional observations from a re-analysis of the deposited data

How the results depend on the processing

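The median log2 ratio of the members for 5MO to WT was 0.25 and became 0.20 with a pseudocount of 1 and 0.16 with a minimum mean RPKM of 1 or with no minimum. The last 2 settings also took that for 5MO to 5mRNA from 0.20 to 0.11. The number of members at least 1.5-fold higher, 3 for 5MO to WT, 2 for 5mRNA to WT and 2 for 5MO to 5mRNA, became 1, 0 and 0 with a pseudocount of 1 and 1, 1 and 0 with a minimum mean RPKM of 1. At 2-fold it became 0 for 5mRNA to WT and 0 for 5MO to 5mRNA. The 1 member lower in 5MO than in 5mRNA was lost with a pseudocount of 1 and with the minimum of 1, which leaves *runx2b* out. With that minimum 5.23% and 5.74% of all genes were past 1.5-fold for 5MO to WT, 4.87% and 5.37% for 5mRNA to WT, and 5.60% and 5.37% for 5MO to 5mRNA, in place of about 9% in each direction. The log2 ratio of each member that has a counting interval stayed within it under the alternatives run, scaling included, except that of *entpd5a* for 5MO to WT, which went from 1.16 to 0.69 with a pseudocount of 1. No value whose interval excluded 1 changed sign. *runx2a* against WT has no such interval, and its log2 ratio for 5MO to WT went from 1.17 to 0.29 with a pseudocount of 1 and to 1.72 with one of 0.01. The scaling alternatives moved the median of all genes by less than 0.1 on the log2 scale. No paired analysis was possible because each group has 1 library, and for the same reason no replicate could be left out. Depth limits *runx2a*, *runx2b* and *sp7* most.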

Other observations

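Osteoclasts, the cells that resorb bone, were followed with 10 genes, of which 9 had a ratio. For 5MO to WT their median log2 ratio was -0.10, with 2 intervals above 1 and 2 below, and for 5mRNA to WT it was -0.02, with 1 above and 2 below. These counts are near the shares of all genes, 19.6% above and 19.1% below for 5MO to WT and 17.9% and 17.4% for 5mRNA to WT, and are no result about the list. *ctsk*, the gene for the collagen-degrading protease cathepsin K and the most abundant of the list, had RPKM values of 11.4 (WT), 14.5 (5MO) and 10.4 (5mRNA), the same order of libraries as *sp7*. Its ratio was 1.27 for 5MO to WT, with an interval from 1.11 to 1.46, and 0.917 for 5mRNA to WT. *csf1ra*, the receptor gene of the macrophage lineage, was higher in both injected libraries, at 1.43 and 1.35. The matrix protease gene *mmp9* was lower in both, at 0.669 and 0.542, and the calcitonin receptor gene *calcr* was lower in 5MO alone, at 0.696 and 0.983.

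Next to *bglap*, at 6383 nt, lies *mgp*, the gene for matrix Gla protein, which in mice holds back calcification of soft tissue. It had 2 (WT), 10 (5MO) and 3 (5mRNA) reads, too few for a ratio, lies mostly inside the same *si:ch1073-504d15.3* on the same strand, and was looked at for its position after the values had been seen. The 5 loading genes had median log2 ratios of 0.10 for 5MO to WT and 0.11 for 5mRNA to WT, and single ones, such as *eef1a1l1* at ratios of 1.07 and 0.970, lay on both sides of 1.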
